A study of Homo sapiens with 8 samples.

Results

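The 10 genes described here code for central parts of canonical Wnt signaling. They are the DNA-binding factors TCF7, TCF7L1, TCF7L2 and LEF1, the co-activator beta-catenin (CTNNB1), the scaffolds AXIN1 and AXIN2, the Dishevelled-binding proteins DACT1 and DACT2, and the secreted inhibitor DKK1. They were selected by gene symbol and found through the transcript given for each array probe, and all 10 had a probe among the 19056 genes that could be matched. A549, an established line from a human lung carcinoma, was grown with EEDS, an ethanol extract of Descurainia sophia seeds, at 1.25, 5 or 20 μg/mL, or with helveticoside, a cardiac glycoside, at 3.75, 15 or 60 nM. Each agent formed a series of its own with its own DMSO control, and each condition was measured on 1 one-color Agilent array with the RNA of 3 experiments combined, 8 arrays in all. For the arrays, cells were exposed for 24 h according to the methods and for 48 h according to the labels. The doses of a series are called low, middle and top here.

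In canonical Wnt signaling, a complex built on axin marks beta-catenin for destruction until a Wnt ligand binds a Frizzled receptor with its LRP co-receptor and, through Dishevelled, shuts that complex down. Beta-catenin then enters the nucleus and joins TCF and LEF proteins, which otherwise hold target genes silent together with Groucho-type repressors. AXIN2, DKK1 and some TCF/LEF genes are themselves known targets, so that the pathway switches its own inhibitors on, and carcinoma lines differ widely in how active it is.

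TCF and LEF proteins bind DNA words that begin with CTTTG. Of 35116 windows from 250 bases before to 50 after a RefSeq transcription start of GRCh38.p14, searched on both strands, 4.43% held the word CTTTGAA, while CTTTGAT was in 2.62% of them, the word CTTTGTA was in 2.77%, and CTTTGTT, the most frequent, was in 5.2%. At least 1 of these 4 words was in 13.8% of the windows. The members other than AXIN2 had 14 windows, and 5 of these held a word, in TCF7, TCF7L2, DACT1, DACT2 and DKK1, a count too small to be set against that share. Shown here are the 250 bases before the start for 4 of them, with the words in capitals, because DACT2 fell into the background, TCF7L2 rose at every step, and DACT1 and DKK1 code for inhibitors that changed less evenly. DACT2 lies at chr6:168319778-168320027 on the minus strand, DKK1 at chr10:52314031-52314280, DACT1 at chr14:58633811-58634060 and an internal start of TCF7L2 at chr10:113126383-113126632, all 3 on the plus strand.
DACT2: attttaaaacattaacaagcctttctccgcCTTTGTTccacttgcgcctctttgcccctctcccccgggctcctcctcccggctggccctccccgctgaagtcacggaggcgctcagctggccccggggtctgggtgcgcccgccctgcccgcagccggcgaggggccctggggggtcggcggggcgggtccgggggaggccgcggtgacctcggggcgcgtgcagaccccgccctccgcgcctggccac
DKK1: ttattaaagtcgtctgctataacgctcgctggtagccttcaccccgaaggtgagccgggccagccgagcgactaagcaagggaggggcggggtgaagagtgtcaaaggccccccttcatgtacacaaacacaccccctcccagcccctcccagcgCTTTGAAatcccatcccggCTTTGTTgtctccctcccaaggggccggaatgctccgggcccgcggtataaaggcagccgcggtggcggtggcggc
DACT1: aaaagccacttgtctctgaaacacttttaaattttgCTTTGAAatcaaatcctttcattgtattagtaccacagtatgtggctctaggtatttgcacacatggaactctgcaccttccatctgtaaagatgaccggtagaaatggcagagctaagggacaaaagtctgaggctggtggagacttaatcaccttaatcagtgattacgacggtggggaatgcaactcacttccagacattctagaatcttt
TCF7L2: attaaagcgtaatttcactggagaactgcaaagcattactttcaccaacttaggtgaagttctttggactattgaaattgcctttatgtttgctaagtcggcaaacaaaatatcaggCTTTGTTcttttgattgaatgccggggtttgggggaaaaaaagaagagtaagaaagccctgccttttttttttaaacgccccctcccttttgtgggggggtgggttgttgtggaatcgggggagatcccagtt
Of the 3 starts of DACT1 and the 3 of TCF7L2, those shown were the ones with a word. The word CTTTGTT began 220 bases before the start of DACT2 and 133 bases before this start of TCF7L2, and CTTTGAA began 214 bases before this start of DACT1. DKK1 was the member with 2 words, CTTTGAA at 95 and CTTTGTT at 76 bases before its start. A match describes these letters and is no evidence of binding.

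Levels are given as log2 of the scanner software's background-subtracted signal after quantile normalization over the 8 arrays, and a probe's level can be compared between arrays but not with that of another probe. A ratio is the difference of this log2 level from the vehicle control of the same series. The scanner software also calls each spot well above background or not, and this call was made on all 8 arrays for 6 members, on 7 for DACT1, 6 for AXIN2, 4 for DACT2 and none for LEF1. On the arrays, 63.3% to 64.9% of probes in the EEDS series and 54.5% to 59.5% in the helveticoside series were well above background, no spot was saturated, and the median signal was 182 to 278 over a local background of 27 to 34. All 8 epithelial and metabolic markers of A549 (KRT7, KRT8, KRT18, EPCAM, AKR1B10, AKR1C1, NQO1 and ALDH1A1) were well above background on every array. Of 11 markers of other cell types, PTPRC, CD68, CDH5, COL1A1 and ALAS2 were also above it on every array, with log2 levels of at most 9.36, COL3A1 was on 1 array, and CD3E, PECAM1, VWF, PDGFRB and HBB were on none. The part of these in the results was not tested.

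A single dose has 1 array and no replicate error, so its ratio carries no p-value. The error that the scanner software gives for a spot makes 0.20 to 0.38 on the log2 scale for the measured ratios of the members, and covers variation within an array only. A test was possible for the dose trend: limma was fitted over the 8 arrays with a line per series, from the vehicle to the top dose in 3 equal steps, and adjusted p-values are Benjamini-Hochberg values over the 19046 genes tested. Its error is the scatter of the arrays around the 2 lines, not the spread of repeated cultures. Slopes are in log2 units per dose step, given with the standard error of the fit. Each agent was run in 1 series, so agent and series cannot be told apart. Likewise, a lower level in all cells and a loss of the cells that held the transcript cannot be told apart in RNA of whole cultures.

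Of the 10 members, 4 had a dose trend over both agents, against 30% of all genes tested. TCF7L2 and AXIN1 rose with dose and AXIN2 and DACT2 fell. With EEDS alone 3 members passed, TCF7L2 and AXIN1 rising and DACT2 falling, where 15.2% of all genes passed (7.27% rising and 7.9% falling). That share is over all 19046 genes tested, many of them too dim to be called well above background. Among genes well above background on at least 1 array of each series, 3911 of 13120 passed with EEDS, and 3 of 9 members. With helveticoside alone 3 passed as well, TCF7L2 rising and AXIN2 and DACT2 falling, where 11.3% of all genes did (5.48% rising and 5.83% falling). The median slope of the members over both agents was 0.05, and that of all genes was below 0.01 in size (0.00017). Without the EEDS control array or without the top helveticoside array, the count over both agents was 2 members, TCF7L2 and DACT2, in both cases. Over all genes the count fell in both of these fits too, from 5719 to 1337 without the top helveticoside array. None of the 10 members was called with EEDS alone when the EEDS control or the top EEDS array was left out, and none with helveticoside alone when the helveticoside control, middle or top array was left out. In these EEDS fits 0 of the 19046 genes passed, so the result is not particular to the members. The same holds for helveticoside without its middle or its top array. With dose on a linear scale, or with the 4 arrays of a series fitted alone, 0 members were called for either agent. With the 4 arrays alone, 0 of all genes were called as well, whereas 2190 passed for EEDS on the linear scale.

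**Figure D1:**
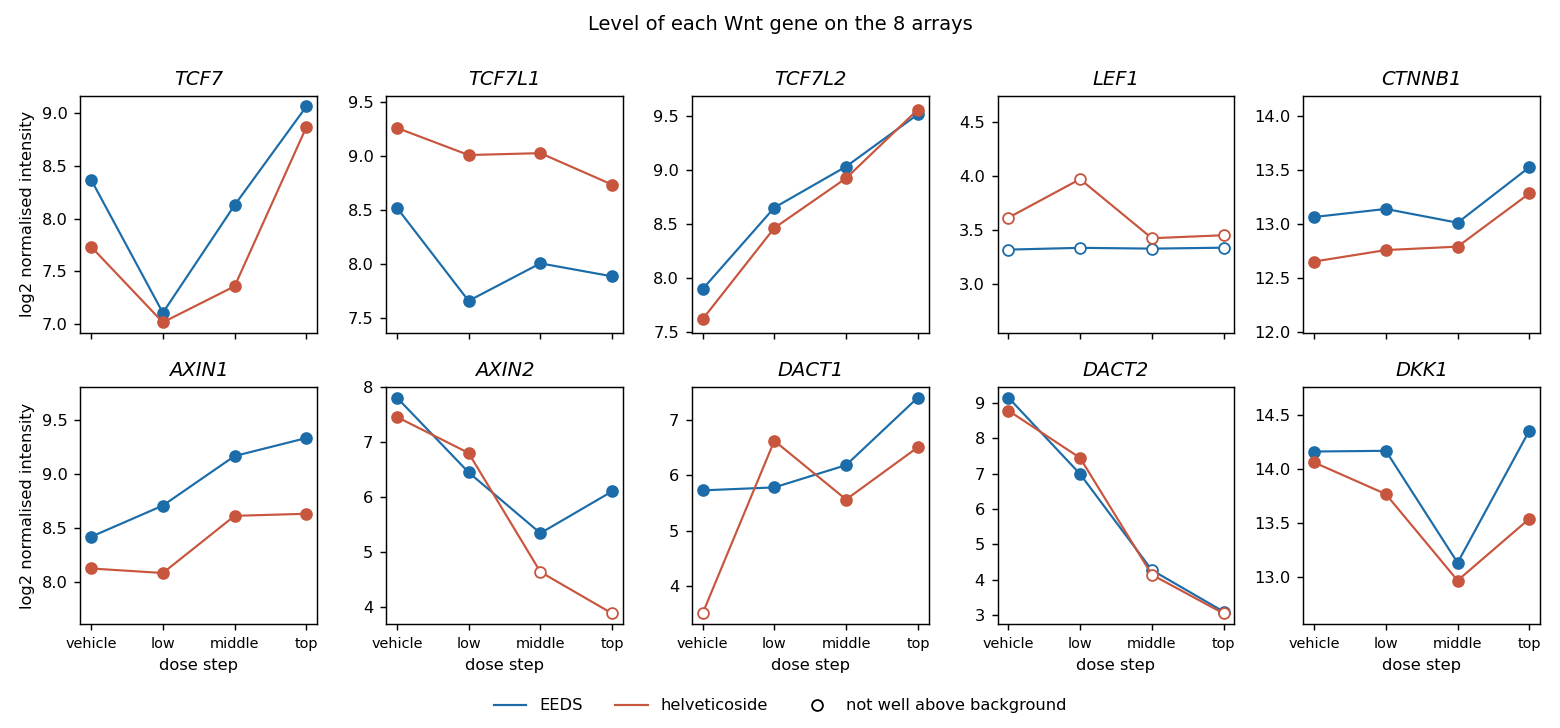
Log2 normalized intensity of the probe with the highest mean signal for each of the 10 genes (y axis, own range per gene) at the vehicle, low, middle and top dose (x axis), with 1 point per array, EEDS in blue and helveticoside in red. Open points are arrays on which the probe was not well above background: DACT2 drops to open points from the middle dose on in both series, TCF7L2 climbs at every step in both, and LEF1 is open throughout.

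The plot of the levels on the 8 arrays shows several shapes among the members: a steady climb (TCF7L2), a fall into the background (DACT2, and AXIN2 with helveticoside), a dip at one dose (TCF7 at the low and DKK1 at the middle dose), a level under the control at every dose (TCF7L1), and little movement up to the middle dose (CTNNB1).

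Among the DNA-binding factors, TCF7L2, which codes for TCF4, a TCF best known from intestinal epithelium, rose in both series. In the EEDS series its log2 level was 7.90 with the vehicle, 8.66 at the low, 9.04 at the middle and 9.52 at the top dose. In the helveticoside series it was 7.62, 8.47, 8.93 and 9.56 in the same order. Every step was upward, and in each series all 3 treated arrays were above the vehicle control. At the top doses TCF7L2 was 3.07-fold higher with EEDS and 3.84-fold higher with helveticoside. Its slope was 0.52 ± 0.06 per step with EEDS (limma, adjusted p = 0.0144) and 0.63 ± 0.06 with helveticoside (limma, adjusted p = 0.0167). Over both agents the slope of 0.58 ± 0.05 had an adjusted p of 0.00260 by limma, equal with that of DACT2 the lowest among the members, and it stayed under the threshold when any 1 array was left out, with adjusted p-values up to 0.0371.

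TCF7L2 had 3 probes, and these did not all move alike. The second, for the same transcript, had log2 ratios of 0.61, 1.18 and 1.86 with EEDS and 0.61, 1.41 and 2.08 with helveticoside. The third, made for another transcript of the gene, had -0.16, 0.49 and -0.83 with EEDS. With helveticoside it was not well above background at the low dose and had ratios of 0.73 and 0.61 at the middle and top dose. With the mean of all 3 probes the EEDS slope of TCF7L2 was 0.32 per step in place of 0.52, and still passed (limma, adjusted p = 0.0474). At the top EEDS dose the third probe was 1.77-fold lower where the other probes were 3.07-fold and 3.64-fold higher.

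**Figure D2:**
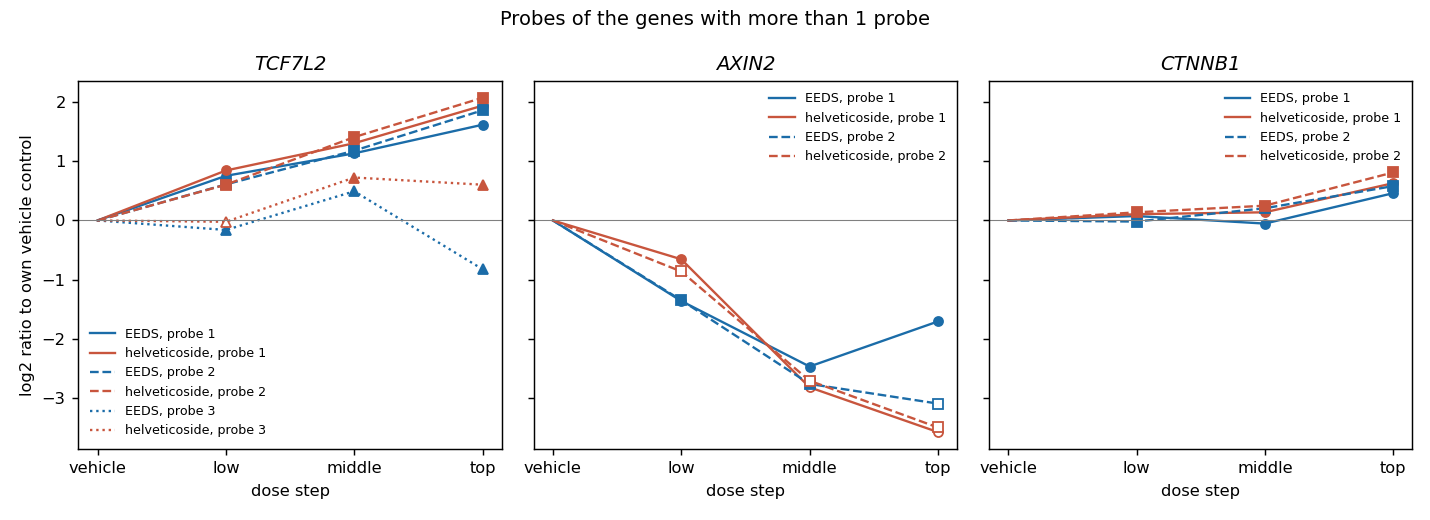
Log2 ratio to the vehicle control of the same series (y axis) by dose (x axis) for each probe of the 3 members with more than 1 probe, EEDS in blue and helveticoside in red, probe 1 being the one with the highest mean signal. Open points are treated arrays on which the probe was not well above background; the dotted TCF7L2 line leaves the other TCF7L2 lines from the low dose on, while the probes of AXIN2 and of CTNNB1 run close together except AXIN2 at the top EEDS dose.

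TCF7, which codes for TCF1, the member of the family best known from T cells, went down and then up. Its log2 level was 8.37, 7.11, 8.13 and 9.06 from the vehicle to the top dose of EEDS. In the helveticoside series it was 7.73, 7.02, 7.36 and 8.87. In both series the low dose was the lowest array and the top dose the highest. TCF7 was 2.40-fold lower at the low and 1.62-fold higher at the top EEDS dose, and 1.64-fold lower and 2.20-fold higher at the same steps of helveticoside. The array holds 10 spots of this probe, whose log2 values spread with an SD of 0.06 to 0.14 on an array, with 9 or 10 spots in use.

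A line did not describe this course, and the trend over both agents was 0.34 ± 0.23 per step (limma, adjusted p = 0.317). In a fit added after the data were seen, each dose step had its own mean over both agents. The arrays of both agents at a step served as repeats there, although agents and doses differ. The error of that fit is thus how far the agents disagreed, not the spread of repeated cultures. TCF7 was higher in it by 0.91 ± 0.21 at the top step (limma, adjusted p = 0.0276), where 38.3% of all genes passed. Its mean of -0.99 ± 0.21 at the low step did not pass (limma, adjusted p = 0.131), and only 2 of 19046 genes did at that step (0.0105%).

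TCF7L1, which codes for TCF3 and acts mostly as a repressor, had levels of 8.52, 7.65, 8.0 and 7.88 with EEDS. The helveticoside series had 9.26, 9.01, 9.02 and 8.73. The vehicle control was the highest array of each series, but the trend over both agents of -0.16 ± 0.08 per step did not pass (limma, adjusted p = 0.208). The control arrays of the 2 series differed by 0.74 (log2, helveticoside over EEDS), more than any dose of helveticoside differed from its own control. The LEF1 probe was not well above background on any array, at log2 levels of 3.32 to 3.34 with EEDS and 3.43 to 3.97 with helveticoside, so that no ratio is given.

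CTNNB1, the transcript of beta-catenin, was bright on every array and changed little up to the middle dose. Its log2 level was 13.06, 13.14, 13.01 and 13.52 with EEDS, from the vehicle to the top dose. The helveticoside arrays had 12.65, 12.76, 12.79 and 13.28. The top dose was the highest array in both series, 1.38-fold above the vehicle with EEDS and 1.55-fold with helveticoside. This probe also has 10 spots, with an SD of 0.04 to 0.08 between them on an array, which covers the noise within an array and not that between cultures. The second probe, for another transcript, had ratios of 0.58 and 0.81 there. The trend over both agents was 0.16 ± 0.05 per step and did not pass (limma, adjusted p = 0.0835). It passed in 0 of the 8 fits that left out an array and in 3 of 11 other alternatives. Among these were the mean of both probes (0.19, adjusted p = 0.0400) and 75th-percentile scaling (0.25, adjusted p = 0.0138). The added fit by step gave 0.55 ± 0.08 at the top step (limma, adjusted p = 0.00747), where 38.3% of all genes passed.

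The axins are the scaffolds of the complex that destroys beta-catenin, AXIN1 being made constantly and AXIN2 being induced by the pathway itself, and their transcripts moved in opposite directions. AXIN1 had log2 levels of 8.42, 8.71, 9.17 and 9.34 with EEDS, a step up at every dose. With helveticoside the levels were 8.13, 8.09, 8.62 and 8.63, so that the low dose was within 0.04 of the control and the middle and top doses were higher. The ratio at the top dose was 1.89-fold with EEDS and 1.42-fold with helveticoside. The slope was 0.32 ± 0.07 with EEDS (limma, adjusted p = 0.0375), 0.20 ± 0.07 with helveticoside (limma, adjusted p = 0.119) and 0.26 ± 0.05 over both (limma, adjusted p = 0.0144). The last was lost without the EEDS control (adjusted p = 0.0742), the top EEDS array (adjusted p = 0.0606) or the top helveticoside array (adjusted p = 0.0797). The call with EEDS alone held in 1 of the 8 fits that left out an array.

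AXIN2 had log2 levels of 7.81, 6.45, 5.34 and 6.10 with EEDS. With helveticoside they were 7.46 and 6.80 for the vehicle and the low dose, and 4.64 and 3.88 for the middle and the top dose, where the probe was not well above background. All treated arrays were below their control. The fall was 2.57-fold, 5.54-fold and 3.27-fold with EEDS from the low to the top dose, so that the middle dose was lowest. With helveticoside it was 1.58-fold at the low dose and at least 4.71-fold and at least 3.96-fold at the middle and top dose, a bound being set by the lowest signal well above background on the dim array.

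The slope of AXIN2 was -1.29 ± 0.26 with helveticoside (limma, adjusted p = 0.0372), -0.62 ± 0.26 with EEDS (limma, adjusted p = 0.158) and -0.96 ± 0.18 over both (limma, adjusted p = 0.0152). The call with helveticoside alone held in 2 of the 8 fits that left out an array, and was lost with the processed table (slope -0.46, adjusted p = 0.181), with normalization within a series (adjusted p = 0.0523) and on a linear dose scale (adjusted p = 0.190). The slope over both depends on values near the background: with these raised to the lowest value well above it, an alternative chosen after the data were seen, the slope over both was -0.69 and still passed (adjusted p = 0.00756). Without the EEDS control, the helveticoside control or the top helveticoside array it no longer passed, with adjusted p-values of 0.0823, 0.0534 and 0.0882. The second AXIN2 probe had ratios of -1.35 and -2.76 at the low and middle dose of EEDS, and was at least 8.56-fold lower at the top, where the first probe was 3.27-fold lower. With helveticoside it was at least 1.78-fold, 2.96-fold and 2.48-fold lower in order of dose.

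The DACT proteins bind Dishevelled and can dampen Wnt signals, and the 2 genes of this family examined went different ways. DACT2 fell into the background with both agents. Its log2 level was 9.15 with the EEDS vehicle and 6.99 at the low dose, and at 4.28 and 3.10 the middle and top dose were not well above background. In the helveticoside series the levels were 8.78, 7.44, 4.14 and 3.05, again with the last 2 in the background. DACT2 was 4.47-fold lower at the low EEDS dose, at least 20.9-fold lower at the middle and at least 20.3-fold lower at the top. With helveticoside it was 2.53-fold, at least 11.8-fold and at least 9.90-fold lower. The smaller bounds at the top doses reflect the floor of each array and are no sign of a return.

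The slope of DACT2 was -2.09 ± 0.23 with EEDS (limma, adjusted p = 0.0136), -2.05 ± 0.23 with helveticoside (limma, adjusted p = 0.0170) and -2.07 ± 0.16 over both (limma, adjusted p = 0.00260). With dim values raised to the lowest value well above background the slope over both was -1.37 (adjusted p = 0.00115), so that its size, but not the call, depended on how the background was treated. The trend over both agents passed without any 1 of the arrays, with adjusted p-values of 0.00802 to 0.0371, but not with dose on a linear scale (adjusted p = 0.0564).

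DACT1 had log2 levels of 5.72, 5.78, 6.18 and 7.40 with EEDS, the highest at the top dose, which was 3.19-fold above the vehicle. With helveticoside the control, at 3.50, was not well above background, and the treated arrays had 6.62, 5.56 and 6.50. DACT1 was thus at least 2.09-fold higher at the low and at least 1.93-fold higher at the top helveticoside dose, and at the middle dose it was at the lowest signal that the control array could have resolved, so that no fold is given. The slope over both agents was 0.67 ± 0.25 and did not pass (limma, adjusted p = 0.107). Without the helveticoside control the slope with helveticoside was -0.06, and the level of that control, in the background and 2.22 below the EEDS control on the log2 scale, was the largest difference between control arrays among the members.

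DKK1, a secreted protein that keeps the LRP co-receptors from Wnt ligands, was bright on all arrays and lowest at the middle dose in both series. Its log2 level was 14.17, 14.17, 13.14 and 14.36 with EEDS. The helveticoside arrays had 14.07, 13.77, 12.97 and 13.54. At the middle dose DKK1 was 2.04-fold lower with EEDS and 2.13-fold lower with helveticoside, and at the top dose it was 1.14-fold higher with EEDS and 1.43-fold lower with helveticoside. The trend over both agents was -0.14 ± 0.15 per step (limma, adjusted p = 0.574). In the added fit by step, the middle step had a mean of -1.06 ± 0.19 (limma, adjusted p = 0.0265), where 22.2% of all genes passed, and the top step had -0.16 ± 0.19 (limma, adjusted p = 0.594).

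**Figure D3:**
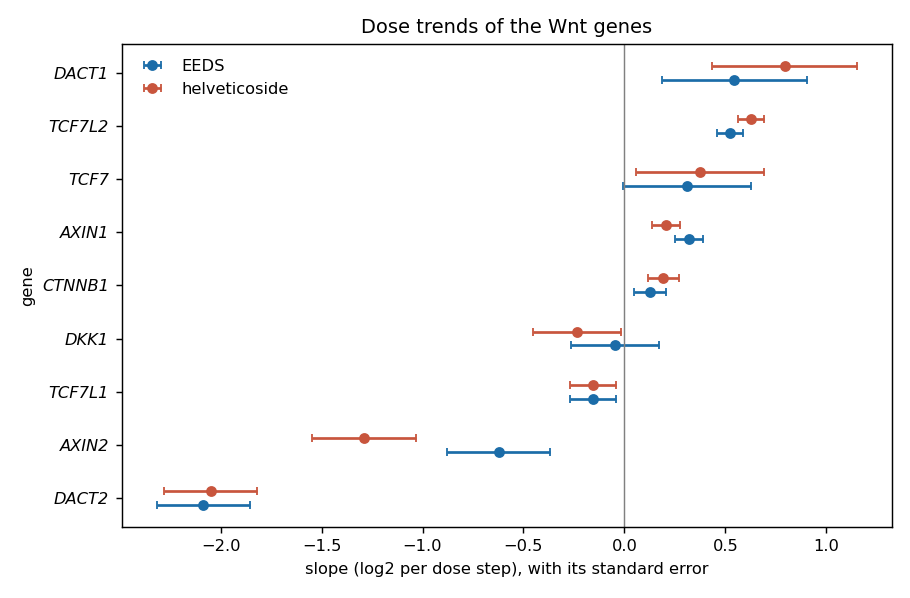
Slope of the dose trend in log2 units per dose step (x axis) with its standard error from the limma fit over 8 arrays, for 9 of the 10 genes (y axis; LEF1, in the background on every array, is left out), EEDS in blue and helveticoside in red. DACT2 and AXIN2 lie below 0 and TCF7L2 and AXIN1 above it with both agents, and the bars are widest for DACT1 and TCF7.

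The slopes with the 2 agents can be set side by side in the plot of the dose trends. Because the doses are in different units and the agents were run in separate series, only the difference of slopes per step was tested. It passed for none of the 19046 genes (limma; 526 at an unadjusted p under 0.05), and no member was among those 526, the lowest unadjusted p of a member being 0.119. The 95% interval of the EEDS slope minus the helveticoside slope ran from -0.33 to 0.12 for TCF7L2, from -0.13 to 0.36 for AXIN1, from -0.24 to 1.57 for AXIN2 and from -0.85 to 0.78 for DACT2. For AXIN2 and DACT2 the interval thus leaves room for large differences.

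Counted by size at single doses, the members past 2-fold with EEDS were 3 lower and 0 higher at the low dose, where 3.71% and 4.21% of all genes were. At the middle EEDS dose 3 were lower and 1 higher, next to 8.53% and 7.35% of all genes, and at the top dose 2 were lower and 2 higher, next to 14.6% and 13.4% (28% in either direction). The low helveticoside dose had 1 lower and 1 higher, next to 4.34% and 3.4% of all genes, and the middle dose 3 lower and 2 higher, next to 8.11% and 7.13%. At the top helveticoside dose 2 were lower and 3 higher, next to 12.9% and 10.9% (23.7% in either direction). These counts include values near the background and share the control of their series. At the top EEDS dose the members were TCF7L2 and DACT1 higher and AXIN2 and DACT2 lower, and with helveticoside TCF7 joined those that were higher. DACT1 is counted as higher at every helveticoside dose through a control in the background. Only bounds are known for it there, at least 2.09-fold at the low and at least 1.93-fold at the top dose. At the middle and top helveticoside doses a change of DACT1 past 2-fold is thus not established. The median ratio of the members was 0.33 at the top EEDS dose and 0.17 at the top helveticoside dose on the log2 scale, next to 0.02 and 0.00 (-0.0037) for all genes. When the control of the other series was used, the members past 2-fold at the top were 7 for EEDS and 3 for helveticoside.

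Genes whose course over the 8 arrays was most like that of a member were looked up among 11494 genes well above background on every array, for the 3 members that were so too and spanned at least 1 on the log2 scale within a series. Pearson's r was taken over the 8 levels, each less the mean of its series, as a description of arrays that share their RNA. For TCF7 these were ZNF629 (r = 0.996), TSHZ3 (0.994) and APBB1 (0.991), with 230 genes at r above 0.9. For TCF7L2 they were DCAF12 (0.999), CDKN1C (0.996) and DEF8 (0.994), with 1432 genes above 0.9. For DKK1 they were EZH2 (0.987), UQCRFS1 (0.979) and NAPA (0.972), with 52 genes above 0.9. The steady climb of TCF7L2 was thus shared by many more genes than the middle-dose dip of DKK1.

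The other genes of the pathway were 110 in lists by role, of which 109 were tested and 69 were well above background on all 8 arrays. Over both agents, 27 rose and 16 fell, where 14.4% and 15.6% of all genes did. In the intracellular relay and destruction complex, the group AXIN1 and AXIN2 belong to by function, 10 of 20 rose and 3 fell. Among them CSNK1D, a casein kinase that phosphorylates pathway proteins, rose by 0.57 ± 0.07 per step (limma, adjusted p = 0.00553), and TNKS2, a tankyrase that marks axins for degradation, by 0.45 ± 0.07 (limma, adjusted p = 0.0101). CTNNBIP1, an inhibitor that keeps beta-catenin from TCF proteins, fell by 0.50 ± 0.07 with its brighter probe (limma, adjusted p = 0.00602), but a second probe for the same transcript, also well above background on every array, did not follow, with log2 ratios of 0.04 and -0.06 at the top EEDS and helveticoside doses. Of 14 nuclear cofactors 6 rose and 2 fell, with the Groucho-type repressor TLE4, a partner of the TCF proteins, at 0.64 ± 0.09 (limma, adjusted p = 0.00731).

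Of 16 target genes other than the members 6 rose and 4 fell, so that the fall of AXIN2 was not the course of most of the list. FOSL1 and JUN, both subunits of AP-1, were 1.42 ± 0.12 and 1.07 ± 0.04 per step, and CLDN2, a tight junction protein, was -1.71 ± 0.23 (limma, adjusted p = 0.00294, 0.00166 and 0.00645). Of 15 secreted antagonists other than DKK1 1 rose (FRZB, well above background on 2 EEDS arrays only) and 0 fell, and 7 were well above background on no array. In the remaining groups, 1 of 19 Wnt ligands rose and 2 fell, 3 of 15 receptors rose and 3 fell, and 0 of 8 tested genes of the R-spondin axis rose and 2 fell.

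**Figure D4:**
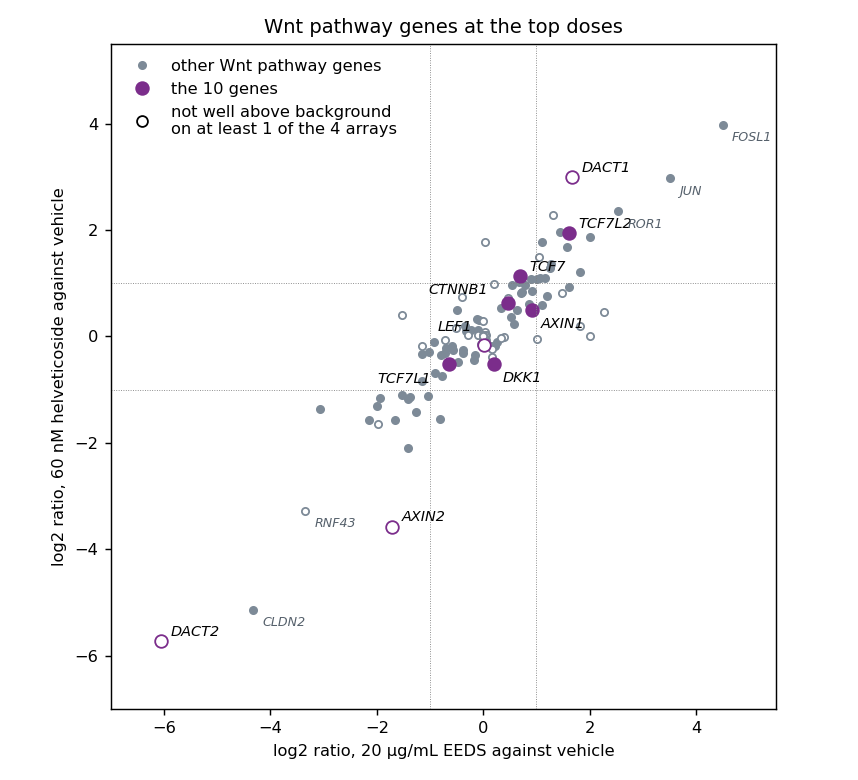
Log2 ratio to the vehicle control at 20 μg/mL EEDS (x axis) and at 60 nM helveticoside (y axis), 1 array each, for the 10 genes (purple) and the 109 other Wnt pathway genes tested (gray), with dotted lines at a 2-fold change. Open points are genes that were in the background on 1 or more of the 4 arrays plotted, whose ratios are not exact, so that their order among the other points is not established; DACT2 is such a point at the lower left.

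The plot of the ratios at the top doses sets the members among these other genes. DACT2, an open point, lay at the lower left with CLDN2, and because only bounds are known for it the order of the pair is not established. TCF7L2 lay among the genes more than 2-fold higher with both agents.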

How the data were processed

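RNA of A549 cells was measured on 8 one-color arrays, 1 per condition. The authors deposited intensity values per spot from the scanner software, among them a processed signal with the background subtracted and the calls of outlier and well-above-background spots, and a table of processed intensity values that was used as an alternative. The software settings were not given in the sources used here.

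After removal of control and outlier spots, a probe's processed signals were averaged and quantile normalization was run over all 8 arrays. On each array, probes scanned at under 1.4 times the local background were raised to at least the lowest value of the probes above that limit. Then log2 was taken. Of 34127 probes, 24812 matched 19056 RefSeq genes of GRCh38.p14. For the 4797 genes with several probes, the brightest on average stood for the gene. Tests covered a gene when its probe reached 1.4 times the local background in both series, which left 19046 genes. Samples were grouped by agent and dose from their labels. Dose trends were fitted with limma 3.58.1 (R 4.3.3, statmod 1.5.0, trend and robust options) with 4 residual degrees of freedom, at an adjusted p of 0.05. Other values came from Python 3.11.15, numpy 2.4.6, pandas 2.3.3 and matplotlib 3.10.9. Tested on simulated data with 200 of 19046 genes changed, the trend over both agents was called for 126 genes, 125 of them changed, and found 78% of slopes of 1 and 47% of slopes of 0.5 per step. The simulated trends were straight and equal in both series, with noise independent between genes. Errors shared by the genes of an array were not simulated, so the rate of false calls in the real data is not known from this.

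The members, the lists and the tests were chosen with earlier results of these data known. Outside the 10 members, genes were named from the Wnt lists if their trend over both agents passed, or if they were over 2-fold changed one way at both top doses while well above background on both controls and both top arrays (45 genes, the 30 largest being eligible). As alternatives, the scanned signal, normexp (offset 50), 75th-percentile scaling, quantile normalization within a series, the processed table, other filters, the mean of all probes, the other series' control, leaving out each array, a linear dose scale, limma without its trend and robust options, and a fit of 1 series alone were tried. Raising dim values to the lowest value well above background and fitting each dose step were added after the data were seen.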

Additional observations from a re-analysis of the deposited data

How the results depend on the processing

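No paired analysis was possible because each condition has 1 array. The number of arrays limits all trends, and the dim values of DACT2, AXIN2, DACT1 and LEF1 limit theirs.

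The number of genes with an EEDS trend was 2889, and it was 4604 with the processed table, 0 with only the 4 arrays of the series and 0 to 2639 with 1 array left out (0 without the control or the top EEDS array). For helveticoside it was 2153, and it was 821 on a linear dose scale, 0 with the 4 arrays alone and 0 to 1475 with 1 array left out (0 without the middle or the top helveticoside array). Over both agents it was 5719, and 1337 to 5031 with 1 array left out (1337 without the top helveticoside array, 2877 without the top EEDS array and 3185 without the EEDS control). With each dose step fitted by its own mean it was 2 at the low, 4221 at the middle and 7287 at the top step. The difference of the trends passed for 0 genes by limma except 3 on the linear scale, none of them a member. Members called over both agents were 4, and 2 on the linear scale, 2 to 5 with 1 array left out, and 0, 5 and 6 at the low, middle and top step. Members past 2-fold were 4 at the top EEDS dose and 7 against the other control. At the top helveticoside dose they were 5, and 3 with the signal as scanned, normexp, the processed table or the other control. The 5 include DACT1, for which only a bound of 1.93-fold is known there.

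Some trends that did not pass changed sign. The EEDS slope of DKK1 was 0.0405 with 75th-percentile scaling, 0.0206 per unit of the lowest dose on the linear scale, and -0.515 to 0.0940 with 1 array left out, and its slope over both agents was 0.0011 on the linear scale. With 1 array left out, EEDS slopes were -0.12 to 0.98 for TCF7, -0.26 to 0.11 for TCF7L1 and -0.0264 to 0.19 for CTNNB1, and helveticoside slopes -0.19 to 0.93 for TCF7 and -0.0583 to 1.03 for DACT1. DACT1 passed with helveticoside in 1 of those fits, without the low array. The difference of the slopes was 0.0864 for TCF7L2 and -0.21 for AXIN2 with the processed table, and for DACT2 0.0024 on the linear scale and -0.39 to 0.23 with 1 array left out. The causes were not tested. Scaling to the 75th percentile moved the median ratio of all genes by as much as -0.36 (top EEDS dose) and 0.14 (low helveticoside dose), and ratios then have to be read against that shift.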

Other observations

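Other Wnt pathway genes also changed with dose over both agents (limma, adjusted p under the threshold except where stated). Such a trend is a mean over the agents, and EPHB2, SOX9, TBL1X and WNT7A passed with neither agent alone. FZD3, FZD4, SIAH1, HBP1, EP300, BMP4 and WNT6 passed with EEDS but not with helveticoside, and APC2 and WNT3 with helveticoside but not with EEDS. Among receptors, ROR1, a receptor for non-canonical Wnt ligands, rose by 0.82 ± 0.06 per step (adjusted p = 0.00260) and RYK by 0.45 ± 0.06 (adjusted p = 0.00504), while the Frizzled genes FZD1, FZD3 and FZD4 had slopes of -0.42, -0.41 and -0.60. FZD8 was 8.43-fold lower at the top EEDS and 2.56-fold lower at the top helveticoside dose, and its trend did not pass (limma, adjusted p = 0.0767). RNF43 and ZNRF3, the ligases that take Frizzled receptors off the membrane, had slopes of -1.06 ± 0.12 and -0.37 ± 0.04 (limma, adjusted p = 0.00435 and 0.00456), and RNF43 was not well above background on 1 of the 8 arrays.

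APC2, a partner of the axins, had a slope of -0.61 ± 0.10 (limma, adjusted p = 0.00998) and SIAH1, a ligase that can degrade beta-catenin, one of 0.41 ± 0.07 (limma, adjusted p = 0.0125). Among nuclear partners, TLE3, whose helveticoside control was not well above background, had 0.63 ± 0.08, HBP1 0.47 ± 0.07, EP300 0.37 ± 0.06 and TBL1X -0.41 ± 0.09 per step. Among targets, EPHB2 had 0.66 ± 0.12, SOX9 0.45 ± 0.13 (limma, adjusted p = 0.0466), BMP4 -0.57 ± 0.10 and CD44 -0.43 ± 0.06. The ligands WNT6 and WNT3 had -0.66 and -0.44, WNT6 not being well above background at the top helveticoside dose. WNT7A, well above background on 4 of the 8 arrays, had 0.40 (limma, adjusted p = 0.0479). FRZB, a secreted antagonist, was well above background only on the middle and top EEDS arrays, with a slope of 0.84 ± 0.15 with EEDS (limma, adjusted p = 0.0262) and 0.09 ± 0.15 with helveticoside (limma, adjusted p = 0.801). LGR4, an R-spondin receptor, had a slope over both agents of -0.49 ± 0.21 (limma, adjusted p = 0.145).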
